A study of Mus musculus with 16 samples.

Results

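Pemafibrate was compared with its vehicle in mouse livers that carried an adenovirus for FAT10. The comparison took every library titled Ad-FAT10 Pema and every library titled Ad-FAT10 CMC, 4 mice against 4, which is 8 of the 16 libraries of the series. Pemafibrate is a synthetic agonist selective for PPARα, and CMC is the vehicle named in the labels. All mice were C57BL/6J wild-type, 8 weeks old, and received the virus through the tail vein. The first oral dose followed after 4 days. Pemafibrate at 1 mpk or CMC was given 18 h and again 5 h before the livers were collected, and food was withdrawn for the last 5 h in every group. The other 8 mice carried the control virus Ad-CTRL and received the same doses of drug or CMC (4 and 4). They are used here only to fit the spread between mice and to set the response beside that in livers without extra FAT10. The labels name neither the promoter of the vector nor the cells it enters, and they give no batch. Mice are called below by the numbers in their titles. A change is always pemafibrate against CMC, so a positive log2 value is a higher level with the drug.

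PPARα is a nuclear receptor that binds DNA as a partner of the retinoid X receptors and is abundant in hepatocytes. When fatty acids or a fibrate bind it, it switches on genes for the uptake, activation and oxidation of fatty acids in mitochondria and peroxisomes, for ketone body formation and for the storage of lipid in droplets. Fibrates are also known to lower the transcription of acute phase genes in liver. FAT10, encoded by Ubd, is a ubiquitin-like modifier that marks proteins for the proteasome and is induced by inflammatory cytokines.

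The unit throughout is counts per 1000000 reads (CPM) after scaling of the libraries. The 8 libraries held between 19859255 and 28898229 counts. A floor of 3 counts, a true level that can still read 0, amounted to 0.104 to 0.151 CPM (counting error only). Mitochondrial transcripts took 3.15 to 5.96% of the counts. Albumin, the defining hepatocyte transcript, stood between 28710 and 48646 CPM (Alb, in pemafibrate mice 1 and 3). Ubd itself read 110, 167, 339 and 330 CPM in CMC mice 1 to 4 and 546, 442, 391 and 460 CPM in pemafibrate mice 1 to 4. In the 8 Ad-CTRL livers Ubd lay between 8.64 and 47.8 CPM. Every Ad-FAT10 library was thus above every Ad-CTRL library, and the pemafibrate group lay above the CMC group (log2 change 0.96 ± 0.33, edgeR adjusted p = 0.041). That last call was lost with DESeq2 (adjusted p = 0.062) and when CMC mouse 1 or 2 or pemafibrate mouse 1, 2 or 4 was left out (adjusted p = 0.068 to 0.12 in those 5 fits). Vector and endogenous Ubd transcripts are not told apart by counts per gene.

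Pemafibrate changed 3750 of the 14770 genes tested, 25.4% of them, at a Benjamini-Hochberg adjusted p under 0.05 in edgeR's quasi-likelihood test. Of these, 1898 rose (12.9% of the genes tested) and 1852 fell (12.5%). At least 2-fold changes were called for 460 genes that rose (3.11%) and 441 that fell (2.99%), so 2849 of the calls were smaller than 2-fold. For 1942 genes (13.1%) all 4 pemafibrate livers were above all 4 CMC livers, and for 1813 (12.3%) all were below. The median change over all genes tested was -0.01 on the log2 scale. Values after ± are standard errors of the log2 change, taken as its size over the square root of the test's F statistic, with 4 livers per group. The first principal component of the 8 libraries held 53.01% of the variance and separated the groups. On the second (17.2%), pemafibrate mice 1 and 3 stood at opposite ends (-42.1 and 35.6) and the other 6 livers between -6.07 and 7.11.

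**Figure D1:**
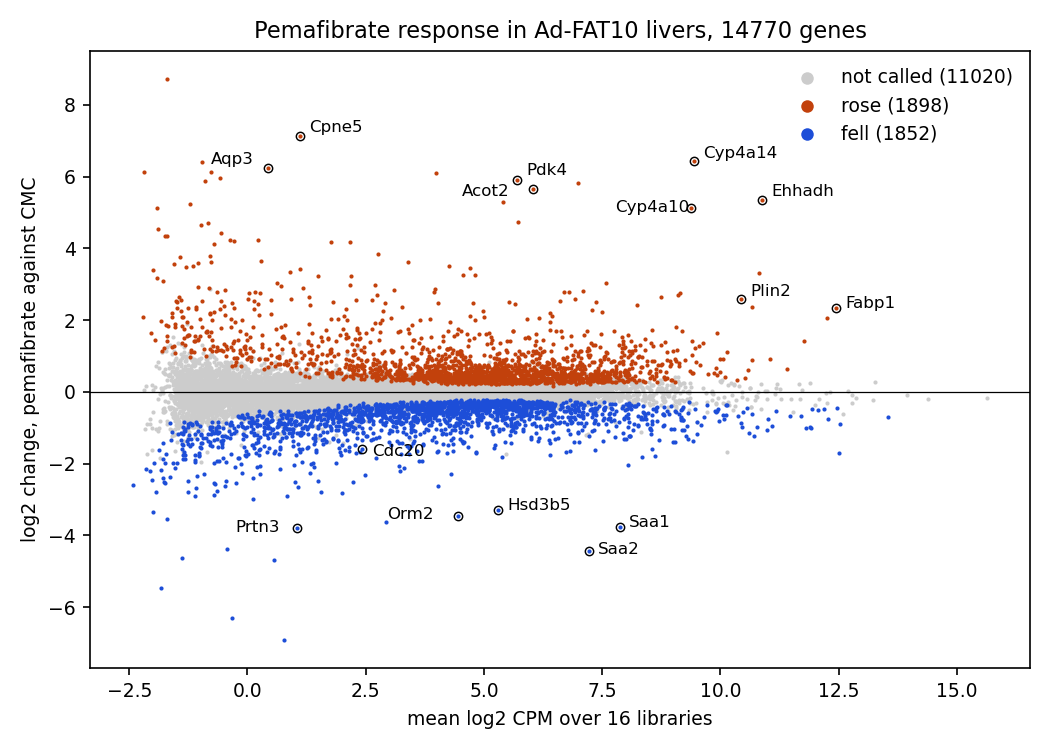
Log2 change with pemafibrate in Ad-FAT10 livers (vertical) against mean log2 CPM over the 16 libraries (horizontal) for the 14770 genes tested. Coloured points are the 1898 genes that rose and the 1852 that fell, grey points were not called, and the named genes are described in the text. Among the named points the highest are Cpne5, Aqp3 and genes of fatty acid oxidation, and the lowest are acute phase genes, Hsd3b5 and Prtn3.

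PPARα targets rose almost without exception, in a list that was chosen with earlier results of these data known. Of 61 tested genes of a list of established targets, 60 rose and none fell, with a median log2 change of 2.02, and 57 had 4 pemafibrate livers above 4 CMC livers. Ehhadh, the bifunctional enzyme of peroxisomal β-oxidation, read 458, 198, 242 and 177 CPM in the CMC mice and 8831, 11711, 11810 and 11810 CPM in the pemafibrate mice. Pdk4, the kinase that inhibits pyruvate dehydrogenase and spares glucose, read 11.2, 3.90, 7.19 and 7.97 CPM without the drug and 342, 382, 625 and 461 CPM with it. Cyp4a14, a fatty acid ω-hydroxylase, went from 189, 38.05, 49.9 and 58.3 CPM to 6364, 7657, 7176 and 7476 CPM. The groups of these genes were far apart, and CMC mouse 1 held the highest vehicle value of all 3. Their log2 changes were 5.36 ± 0.28 for Ehhadh, 5.91 ± 0.29 for Pdk4 and 6.42 ± 0.64 for Cyp4a14 (SE from the same test, edgeR adjusted p = 5.1e-10, 2.8e-10 and 9.1e-07). Without CMC mouse 1 the change of Cyp4a14 was 7.20.

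The 1 tested target that missed the threshold was Cpt1a, the carnitine palmitoyltransferase of the outer mitochondrial membrane that admits long-chain fatty acids to oxidation. It read 669, 541, 456 and 458 CPM in the CMC mice and 633, 586, 651 and 645 CPM in the pemafibrate mice (log2 change 0.24 ± 0.13, edgeR adjusted p = 0.20). The highest value of both groups was that of CMC mouse 1, and without it the change passed (0.37, adjusted p = 0.042). Ppara, the receptor itself, behaved in the same way. Its levels were 146, 107, 92.5 and 86.9 CPM with CMC and 132, 130, 116 and 143 CPM with pemafibrate (log2 change 0.27 ± 0.16, adjusted p = 0.25), and without CMC mouse 1 the change was 0.45 (adjusted p = 0.037). Among 20 PPAR and RXR receptors and coregulators, 3 rose and 4 fell, a share called of 35% beside the 25.4% of all genes. Rxrg, a retinoid X receptor, rose by 0.73 ± 0.13, while the coactivators Ppargc1a (-0.68 ± 0.19) and Lpin1 (-1.25 ± 0.29) fell. The other members called were Rxrb (0.25 ± 0.07) and Nrip1 (0.38 ± 0.12), higher, and Rxra (-0.43 ± 0.12) and Ncoa2 (-0.38 ± 0.11), lower. Rxrb lost its call with no filter on low counts (adjusted p = 0.083), Rxra and Ncoa2 when CMC mouse 1 or 2 was left out, and Nrip1 without CMC mouse 2, 3 or 4 or pemafibrate mouse 3 or 4. Without CMC mouse 2, 2 members rose and 2 fell, and without CMC mouse 1, 4 rose and 2 fell.

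**Figure D2:**
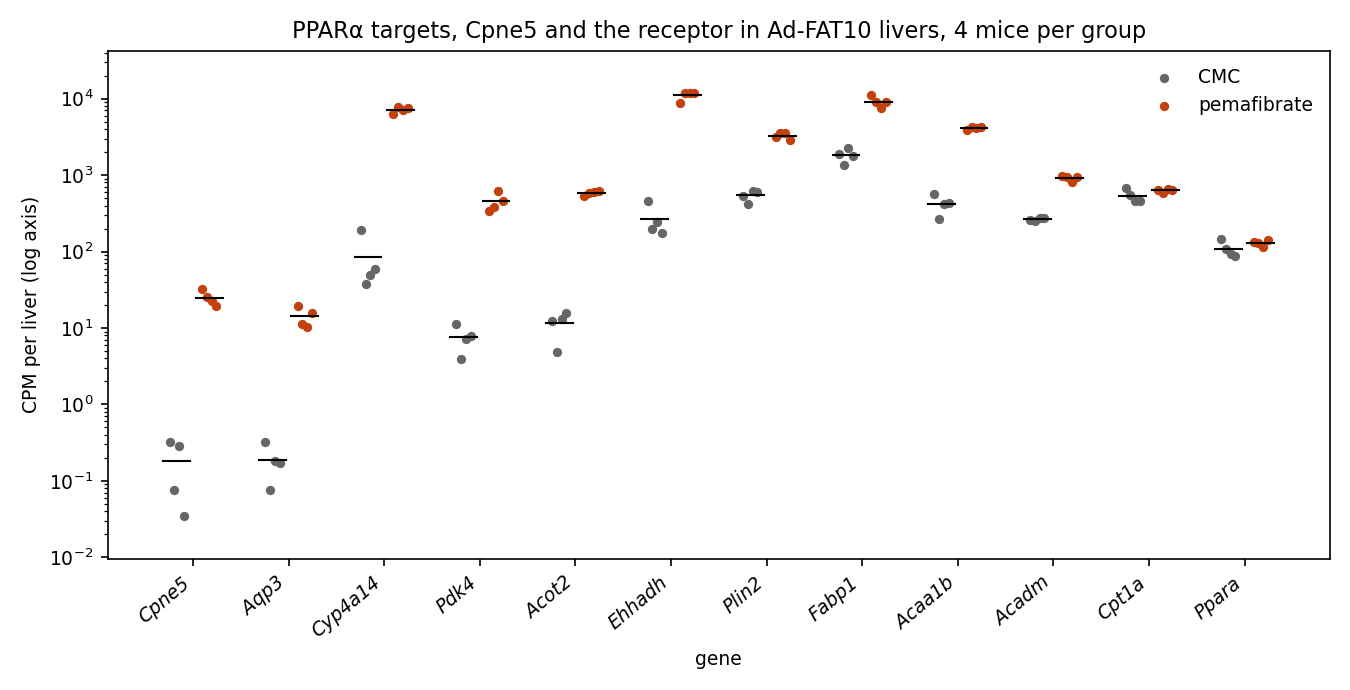
CPM of 12 genes, namely PPARα targets, Cpne5 and the receptor gene Ppara, in each Ad-FAT10 liver on a logarithmic axis. CMC is in grey and pemafibrate in colour, with a short line at each group mean. For 10 of the 12 genes every pemafibrate liver lies above every CMC liver, and for Cpt1a and Ppara the groups overlap.

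PPARα recognises repeats of the half-site AGGTCA spaced by 1 base, the DR1 element. The windows from 250 bases before to 50 bases after annotated starts were searched on both strands for AGGTCANAGGTCA, with N any base and up to 2 of the 12 fixed letters differing. Such a match stood in 9 of 46 target genes with a window (19.6%). Over all tested genes with a window the share was 3.97% (433 of 10910). Among genes that rose at least 2-fold it was 5.52%, and among those that fell at least 2-fold 5.19%. With at most 1 letter differing, 1 target gene held a match, Fabp1, against 0.614% of all tested genes. Because these targets moved together, the 250 bases upstream of the start are shown for 4 of them, each 5′ to 3′ on the strand of its gene with the match in capitals (RefSeq sequence, build GRCm38.p6, where the counts used GRCm39).
Fabp1 (chr6:71199629-71199878, plus strand): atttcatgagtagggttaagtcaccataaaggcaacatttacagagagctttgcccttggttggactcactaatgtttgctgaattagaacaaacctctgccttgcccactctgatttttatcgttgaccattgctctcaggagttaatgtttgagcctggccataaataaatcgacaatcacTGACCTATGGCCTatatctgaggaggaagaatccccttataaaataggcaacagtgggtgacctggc
Acot4 (chr12:84038129-84038378, plus strand): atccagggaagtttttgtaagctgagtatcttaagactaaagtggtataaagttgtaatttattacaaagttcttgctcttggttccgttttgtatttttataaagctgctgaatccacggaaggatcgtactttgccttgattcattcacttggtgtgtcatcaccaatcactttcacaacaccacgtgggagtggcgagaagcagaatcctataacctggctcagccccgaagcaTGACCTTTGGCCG
Cd36 (chr5:17835897-17836146, minus strand): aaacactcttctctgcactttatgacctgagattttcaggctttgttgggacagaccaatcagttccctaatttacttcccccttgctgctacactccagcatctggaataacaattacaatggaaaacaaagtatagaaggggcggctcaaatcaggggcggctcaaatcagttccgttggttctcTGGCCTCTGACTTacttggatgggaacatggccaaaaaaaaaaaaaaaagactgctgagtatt
Mogat1 (chr1:78510810-78511059, plus strand): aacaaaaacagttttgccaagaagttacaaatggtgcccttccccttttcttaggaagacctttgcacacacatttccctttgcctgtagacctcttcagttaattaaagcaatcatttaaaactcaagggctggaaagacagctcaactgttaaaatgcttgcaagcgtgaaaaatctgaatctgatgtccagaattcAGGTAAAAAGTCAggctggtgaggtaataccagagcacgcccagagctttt
The matches begin -67, -13, -63 and -51 bases from the start in Fabp1, Acot4, Cd36 and Mogat1. In Fabp1, Acot4 and Cd36 the repeat reads on the opposite strand. A match describes these letters and not a bound site.

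All 4 genes shown rose, which follows from their choice, as 60 of the 61 tested targets rose. Fabp1, the abundant fatty acid binding protein of the hepatocyte, read 1896, 1340, 2232 and 1778 CPM with CMC and 10991, 8955, 7544 and 9116 CPM with pemafibrate (log2 change 2.34 ± 0.17, edgeR adjusted p = 1.4e-08). Acot4, a peroxisomal acyl-CoA thioesterase, read 34.8, 27.9, 32.7 and 45.7 CPM and 230, 239, 229 and 300 CPM (2.82 ± 0.20, 9.4e-09). Cd36, a fatty acid translocase of the cell surface, read 49.9, 53.7, 37.2 and 60.3 CPM and 324, 320, 234 and 286 CPM (2.53 ± 0.20, 4.6e-08). The groups did not overlap for any of them. Mogat1, which makes diacylglycerol from monoacylglycerol, was near 1 CPM or lower in every CMC liver (0.504, 0.344, 0.397 and 0.996 CPM) and higher in every pemafibrate liver (7.57, 5.99, 3.38 and 6.28 CPM), a log2 change of 3.34 ± 0.32 (4.8e-07).

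Genes for entry and binding of fatty acids mostly rose, and some of them, such as Fabp1, are also in the target list. Of 19 genes for uptake and binding, 14 rose, among them the transporter Slc27a1 (3.26 ± 0.19) and Fabp4 (3.25 ± 0.21), the binding protein best known from adipocytes. The member that fell was Slc27a5 (-0.69 ± 0.15), which activates bile acids as well as fatty acids. Vldlr, the receptor for triglyceride-rich lipoproteins, stood at 0.367, 0.497, 0.614 and 1.13 CPM with CMC and 3.40, 8.39, 9.76 and 7.51 CPM with pemafibrate (3.44 ± 0.40).

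Peroxisomal oxidation held 24 rising members of 32 (median 1.29). The thiolase Acaa1b read 558, 269, 420 and 428 CPM and 3859, 4306, 4141 and 4214 CPM (3.30 ± 0.18, edgeR adjusted p = 5.5e-10), and the carnitine acetyltransferase Crat changed by 2.60 ± 0.14. The members that fell were Acox3 (-0.54 ± 0.13) and the CoA diphosphatase Nudt7 (-0.82 ± 0.29), the latter call being lost without CMC mouse 1 or 2 or pemafibrate mouse 2, 3 or 4. Of 20 genes that build the organelle 9 rose and none fell. Pex11a, which divides peroxisomes, rose most (2.43 ± 0.16), and the import factor Pex19 rose by 0.99 ± 0.09.

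In mitochondrial fatty acid oxidation 20 of 27 genes rose (median 1.16). Acot2, the matrix thioesterase, read 12.3, 4.89, 13.3 and 15.6 CPM with CMC and 531, 579, 598 and 627 CPM with pemafibrate (5.66 ± 0.28). Its cytosolic and peroxisomal relatives Acot1 (5.82 ± 0.38) and Acot3 (5.30 ± 0.41) moved by similar amounts. These 3 genes lie in 1 cluster of near-identical copies, so reads may have been divided between them in a way the counts do not show. The carnitine transporter Slc22a5 (2.78 ± 0.15) and the medium-chain dehydrogenase Acadm (1.80 ± 0.10) rose as well. Acsm5 (-0.60 ± 0.10) and Acsm1 (-0.39 ± 0.13), which activate medium-chain acids, fell, although Acsm1 was no longer called without CMC mouse 1, 2 or 3 or pemafibrate mouse 1, 3 or 4. Of 9 ketone body genes 6 rose and 1 fell. With 1 mouse left out, a fall in this list was called only without pemafibrate mouse 1. The ketone and lactate transporter Slc16a1 read 54.5, 51.7, 50.5 and 61.1 CPM and 174, 180, 192 and 160 CPM (1.69 ± 0.11, edgeR adjusted p = 2.5e-09). Of 14 genes of ω-oxidation 8 rose, with Cyp4a10 at 5.11 ± 0.39 and Cyp4a31 at 4.72 ± 0.28, and Cyp4f14 fell (-0.96 ± 0.16).

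Lipid droplet and lipolysis genes rose in 13 of 23 cases. Plin2, the droplet coat protein, read 529, 423, 624 and 603 CPM and 3178, 3553, 3497 and 2847 CPM (2.59 ± 0.16). Cidec, which fuses droplets, changed by 3.45 ± 0.28, the droplet dehydrogenase Hsd17b11 by 2.64 ± 0.14, Plin5 by 2.06 ± 0.16 and Fitm2 by 1.71 ± 0.11. Plin3 (-0.39 ± 0.10) and Angptl8 (-1.47 ± 0.36), an inhibitor of lipoprotein lipase, fell. Glycerol handling showed one of the widest changes by ratio. Aqp3, an aquaglyceroporin, lay at 0.321, 0.0765, 0.181 and 0.172 CPM with CMC, in the range of a few counts, and at 19.2, 11.3, 10.3 and 15.7 CPM with pemafibrate (6.24 ± 0.37, edgeR adjusted p = 1.4e-09). The glycerol kinase Gk (1.36 ± 0.12) and the glycerol phosphate dehydrogenases Gpd1 (1.40 ± 0.14) and Gpd2 (1.12 ± 0.15) rose, as did Aqp7 (3.76 ± 0.70), while Aqp9 (-0.52 ± 0.15), the main glycerol channel of the hepatocyte, fell. The call of Aqp9 was lost without CMC mouse 1.

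Synthesis of fatty acids and triglyceride moved both ways, with 13 of 29 genes higher and 5 lower. Besides Mogat1, the acyltransferase Gpat4 (1.08 ± 0.13) and the mitochondrial acetyl-CoA carboxylase Acacb (1.25 ± 0.17) rose. The 5 that fell were the ATP citrate lyase Acly (-0.80 ± 0.21), the lipogenic factor Thrsp (-1.63 ± 0.36), Dgat2 (-0.62 ± 0.14), which completes triglyceride, Mogat2 (-1.87 ± 0.41), which like Mogat1 makes diacylglycerol, and Lpin1. Of 30 genes of glucose and glycogen 5 rose and 10 fell, a share called of 50% beside the 25.4% of all genes. Slc37a4, the transporter that feeds glucose 6-phosphatase, read 175, 158, 152 and 186 CPM and 74.7, 71.97, 66.8 and 89.99 CPM (-1.15 ± 0.13), and the glucose transporter Slc2a2 changed by -0.83 ± 0.14. A pair of glycogen-targeting subunits of protein phosphatase 1 went opposite ways. Ppp1r3g rose from 2.11, 0.918, 1.52 and 1.17 CPM to 7.18, 12.9, 11.5 and 12.7 CPM (2.97 ± 0.38), and Ppp1r3c fell from 18.7, 27.9, 36.7 and 37.3 CPM to 9.34, 15.8, 9.70 and 8.46 CPM (-1.48 ± 0.23). Within the pyruvate dehydrogenase switch 7 of 14 genes rose, including the pyruvate carrier Mpc2 (0.85 ± 0.11) and the activating phosphatase Pdp2 (0.62 ± 0.12) along with the inhibiting kinase Pdk4.

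**Figure D3:**
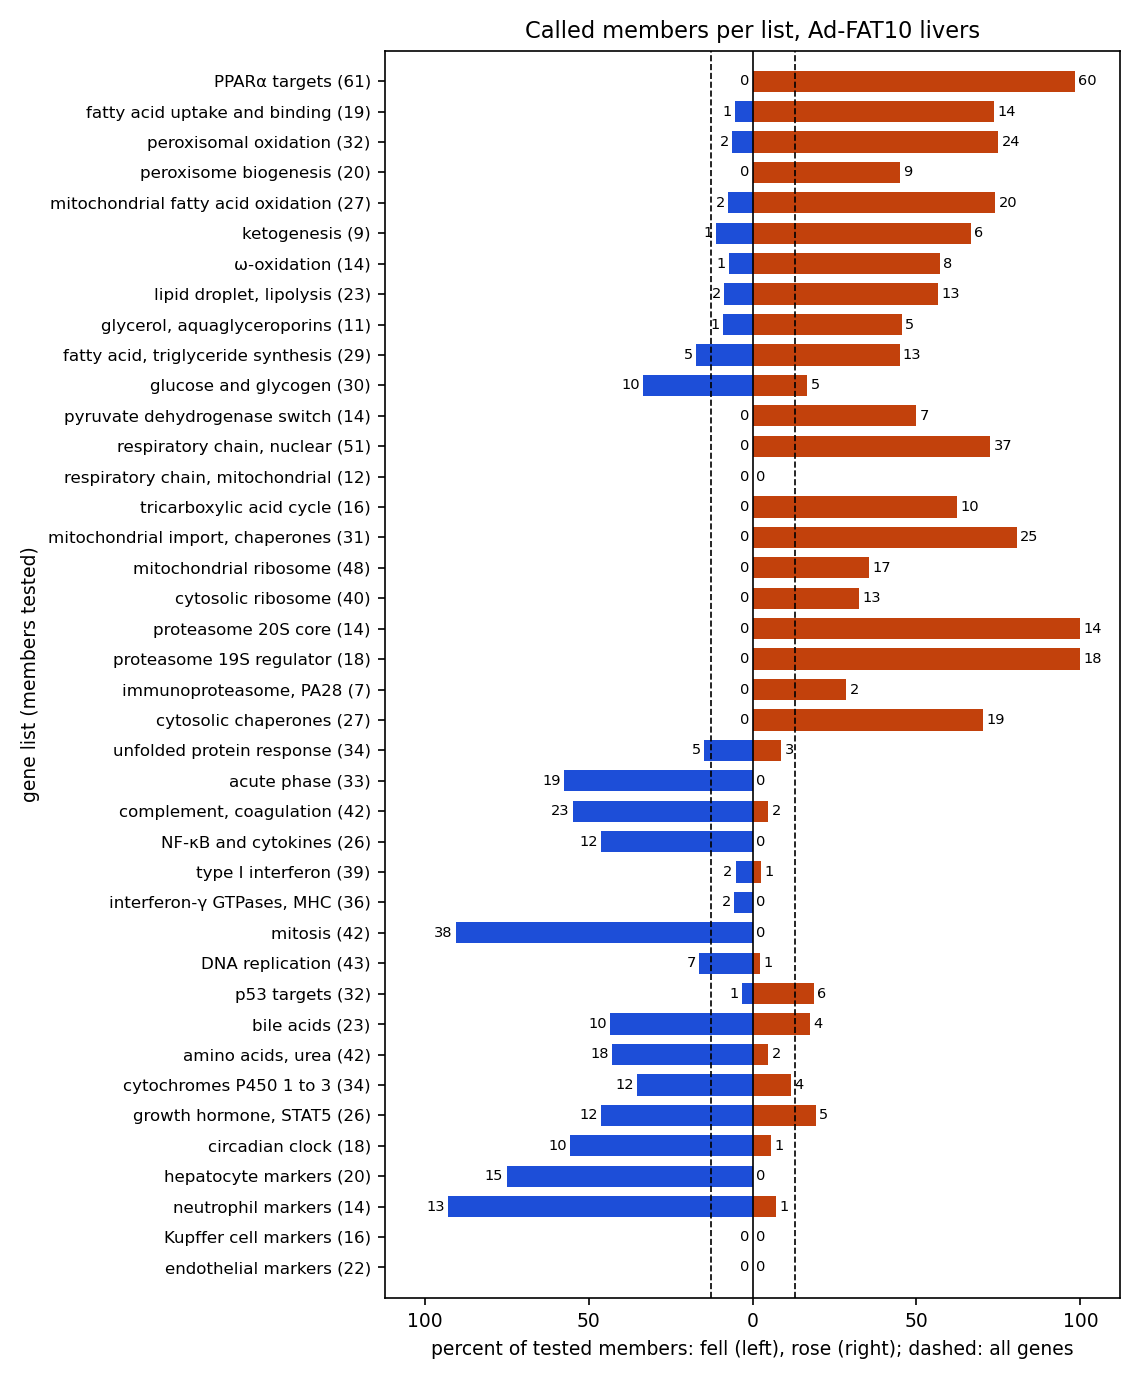
Percent of the tested members of each gene list that rose (to the right) or fell (to the left) with pemafibrate in Ad-FAT10 livers, with the numbers of members at the bar ends. Dashed lines mark the shares over all genes tested, 12.9% higher and 12.5% lower. Lists of fatty acid oxidation, the proteasome and the respiratory chain lie to the right, and mitosis, neutrophil and acute phase lists to the left.

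Nuclear genes of the respiratory chain rose by small amounts. Of 51 tested, 37 rose and none fell, and every one had a positive change, from 0.15 to 1.22 (median 0.40). Ndufab1, the mitochondrial acyl carrier protein and a subunit of complex I, read 17.4, 19.04, 20.8 and 21.9 CPM and 55.4, 45.00, 42.2 and 41.7 CPM (1.22 ± 0.12, edgeR adjusted p = 6.1e-07). Cytochrome c, Cycs, changed by 1.14 ± 0.15 and the ATP synthase subunit Atp5g3 by 0.73 ± 0.11. None of the 12 tested genes of the mitochondrial genome was called by edgeR in either direction (median -0.18), and 0 had an unadjusted p under 0.05. Without pemafibrate mouse 1, however, 2 of them were called lower and the median was -0.37. The libraries were selected for poly(A), which the mitochondrial transcripts carry as short tails. Mean log2 CPM of the nuclear list was 6.62, 6.74, 6.83 and 6.82 in CMC mice 1 to 4 and 7.46, 7.14, 6.95 and 7.15 in pemafibrate mice 1 to 4. Pemafibrate mouse 1 was the highest, and without it 24 genes of the list rose.

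Some other mitochondrial groups moved the same way, but the Slc25 carriers moved both ways (13 of 34 higher and 6 lower). The import machinery and chaperones had 25 of 31 members higher and none lower (median 0.44), among them the chaperonin Hspd1 (485, 465, 439 and 449 CPM against 1030, 945, 849 and 906 CPM, 1.02 ± 0.11), the prohibitin Phb2 (0.75 ± 0.08) and the unfoldase Clpx (0.72 ± 0.11). In the tricarboxylic acid cycle 10 of 16 genes rose, with Suclg1, a subunit of succinyl-CoA ligase, at 0.76 ± 0.09. Of 48 proteins of the mitochondrial ribosome 17 rose and none fell, led by Mrpl17 (0.77 ± 0.09) and Mrps18b (0.58 ± 0.10). That count was 10 without CMC mouse 1 and 10 without pemafibrate mouse 1. The cytosolic ribosome had 13 of 40 genes higher and none lower, which fell to 5 without CMC mouse 1, 8 without pemafibrate mouse 1 and 7 without pemafibrate mouse 2. Over all genes 12.9% rose, beside 35.4% of the mitochondrial and 32.5% of the cytosolic ribosome list. The 5 of 40 cytosolic genes left without CMC mouse 1 are near that share of 12.9%.

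The proteasome, which degrades FAT10 together with the proteins it is attached to, rose as a whole set of subunits. All 14 tested subunits of the 20S core rose, by 0.33 to 0.66, and all 18 of the 19S regulator, by 0.28 to 1.13. For each of these genes every pemafibrate liver was above every CMC liver. Leaving out 1 mouse kept 12 to 14 core and 15 to 18 regulator subunits called. Psmd4, a ubiquitin receptor of the 19S particle, read 116, 136, 139 and 131 CPM with CMC and 281, 289, 280 and 290 CPM with pemafibrate (1.13 ± 0.09, edgeR adjusted p = 6.2e-08). The groups were well apart, with all pemafibrate values close together. The catalytic subunit Psmb5 changed by 0.62 ± 0.11, Psmb4 by 0.55 ± 0.09 and Psmd13 by 0.48 ± 0.08. Nfe2l1, the transcription factor known to drive proteasome genes, read 166, 150, 155 and 154 CPM and 317, 293, 275 and 336 CPM (0.97 ± 0.09, 3.2e-07). Of 9 genes in its list, which holds the assembly factors, 4 rose, the others being Psmg3 (0.69 ± 0.17), Pomp (0.36 ± 0.09) and Psmd5 (0.39 ± 0.09). Of 7 immunoproteasome and PA28 genes, 2 rose, the activators Psme1 (0.56 ± 0.14) and Psme3 (0.27 ± 0.08), a share of 28.6% beside the 25.4% of all genes. The call of Psme3 was lost with no filter on low counts (adjusted p = 0.065). Vcp, a segregase that unfolds marked proteins, rose by 0.48 ± 0.11.

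Cytosolic chaperones rose in 19 of 27 cases with none lower (median 0.46). The Hsp110 family member Hsph1 changed by 1.12 ± 0.16 and the chaperonin subunit Cct3 by 0.65 ± 0.09. The unfolded protein response of the endoplasmic reticulum had 3 of 34 genes higher and 5 lower, a share called (23.5%) near that of all genes (25.4%). The stress sensor Ern1 fell from 62.6, 52.6, 48.5 and 50.3 CPM to 31.7, 33.6, 34.98 and 28.3 CPM (-0.73 ± 0.09), as did Herpud1 (-0.74 ± 0.11), Xbp1 (-0.62 ± 0.16), Edem1 (-0.37 ± 0.10) and Chac1 (-0.81 ± 0.25). Creld2 (0.97 ± 0.22), Dnajb9 (0.58 ± 0.13) and Pdia4 (0.53 ± 0.15) rose. Calls were lost for Chac1 without CMC mouse 1 or pemafibrate mouse 3 or 4, for Edem1 without CMC mouse 2 and for Pdia4 without pemafibrate mouse 1. With no filter on low counts 5 genes of this list were called higher.

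Acute phase genes were among the deepest falls. Of 33 tested, 19 fell and none rose (median -0.99), a share called of 57.6% beside the 25.4% of all genes. Saa1, serum amyloid A, read 751, 5470, 343 and 480 CPM in CMC mice 1 to 4 and 177, 84.4, 134 and 118 CPM in the pemafibrate mice. CMC mouse 2 stood far above the other vehicle livers, and every vehicle liver was above every treated one. The log2 changes were -3.78 ± 0.76 for Saa1, -4.42 ± 0.87 for Saa2 and -3.45 ± 0.62 for the orosomucoid Orm2 (edgeR adjusted p = 0.0012, 0.0010 and 0.00045). Without CMC mouse 2 they were -2.02, -2.14 and -1.94, still called. Serpina3m, an acute phase serpin, did not rest on that mouse, with 205, 244, 183 and 228 CPM against 57.1, 78.8, 81.6 and 107 CPM (-1.41 ± 0.22). Il6ra, the receptor chain through which interleukin 6 drives the acute phase response, read 58.2, 60.03, 39.8 and 55.6 CPM and 19.5, 25.1, 27.4 and 32.4 CPM (-1.03 ± 0.17), and C-reactive protein, Crp, changed by -0.72 ± 0.12.

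Complement and coagulation factors fell in 23 of 42 cases (median -0.44). The share called either way was 59.5%, beside the 25.4% of all genes. Coagulation factor F11 read 71.4, 67.7, 65.3 and 56.7 CPM and 24.1, 22.7, 27.7 and 24.2 CPM (-1.40 ± 0.12, edgeR adjusted p = 8.8e-08), F7 changed by -0.90 ± 0.13 and the complement component C8a by -1.40 ± 0.23. Of the members 2 rose, among them Cfd, complement factor D (3.65 ± 1.14). Cfd read 1.12, 1.53, 0.653 and 15.2 CPM in the pemafibrate mice against 0.0917, 0.115, 0.361 and 0.824 CPM with CMC, so the groups overlapped and the change followed pemafibrate mouse 4. Without that mouse it was 1.56 (adjusted p = 0.31), and the call was also lost without CMC mouse 1, 2 or 3.

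Of 14 tested neutrophil markers 13 fell (median -1.72) and Hdc, a histamine-forming enzyme, rose (0.59 ± 0.18), a call lost without CMC mouse 2 or 4 or pemafibrate mouse 4. S100a8, a calprotectin subunit, read 20.2, 33.7, 8.06 and 8.10 CPM with CMC and 5.37, 3.01, 5.10 and 4.10 CPM with pemafibrate (-1.99 ± 0.39, edgeR adjusted p = 0.00092). Csf3r, the receptor for granulocyte colony-stimulating factor, read 17.98, 15.4, 14.1 and 15.7 CPM and 8.68, 7.78, 10.00 and 8.29 CPM (-0.86 ± 0.15). Both were lower in every treated liver, and for S100a8 CMC mice 1 and 2 were well above CMC mice 3 and 4. The protease Prtn3 read 10.5, 27.5, 2.75 and 4.74 CPM and 0.849, 0.420, 1.31 and 0.618 CPM (-3.80 ± 0.67), and -2.85 without CMC mouse 2. Mean log2 CPM of the whole list was 2.97, 3.45, 1.82 and 1.96 in the CMC mice and 0.97, 0.71, 1.48 and 1.23 in the pemafibrate mice. Without CMC mouse 2, 8 markers fell. The 6 members not tested were Ly6g, Camp, Elane, Mpo, Ctsg and Stfa2l1. In whole liver, fewer cells of a type and less RNA per cell cannot be told apart. CMC mice 1 and 2 also held the highest Saa1 values, and the part of neutrophils in the acute phase difference was not tested.

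Of 26 genes of the NF-κB pathway and its cytokine targets 12 fell and none rose (46.2% called). Tnfaip3, a feedback inhibitor, read 33.5, 21.1, 37.3 and 22.9 CPM and 13.8, 13.7, 19.8 and 18.3 CPM (-0.80 ± 0.18), Birc3 changed by -0.51 ± 0.11 and the cytokine Il18 by -0.59 ± 0.13. The count was 6 without CMC mouse 3 and 5 without pemafibrate mouse 4. Interferon genes moved little. Among 39 type I interferon genes Bst2 rose (0.57 ± 0.12) and the RNA sensors Ifih1 (-0.48 ± 0.13) and Ddx58 (-0.48 ± 0.15) fell, the last call being lost without CMC mouse 1 or 2 or pemafibrate mouse 1 or 4. Among 36 interferon-γ-induced GTPases and MHC genes, Gbp8 (-0.62 ± 0.18) and Gbp9 (-0.87 ± 0.18) fell, Gbp8 not being called from the 8 Ad-FAT10 libraries alone (adjusted p = 0.051). Both shares are below the 25.4% of all genes.

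**Figure D4:**
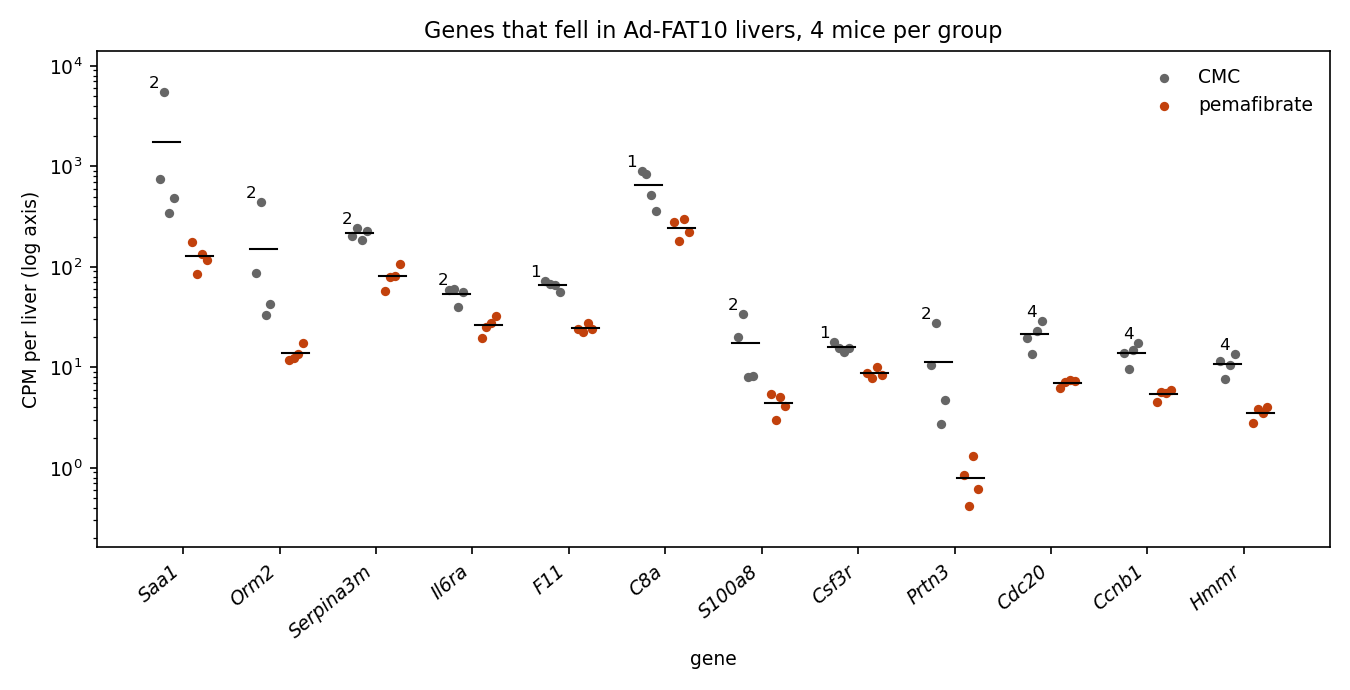
CPM of 12 genes that fell, in each Ad-FAT10 liver on a logarithmic axis, with CMC in grey and pemafibrate in colour, a short line at each group mean and the number of the mouse beside the highest CMC point. The genes are from the acute phase, complement and coagulation, neutrophil and mitosis lists. For all 12 every CMC liver lies above every pemafibrate liver, and CMC mouse 2 is the highest for Saa1, Orm2, Serpina3m, Il6ra, S100a8 and Prtn3.

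Genes of mitosis fell as a group. Of 42 tested, 38 fell and none rose, with changes from -1.61 to -0.11 (median -1.02), and leaving out 1 mouse left 34 to 38 called. Cdc20, the activator of the anaphase-promoting complex, read 19.6, 13.5, 23.05 and 28.9 CPM with CMC and 6.18, 7.17, 7.45 and 7.35 CPM with pemafibrate (-1.59 ± 0.17, edgeR adjusted p = 1.5e-06). Cyclin B1, Ccnb1, read 13.8, 9.60, 14.9 and 17.4 CPM and 4.52, 5.64, 5.61 and 5.92 CPM (-1.36 ± 0.18). No treated liver reached a vehicle liver for either gene. The spindle genes Hmmr (-1.61 ± 0.18) and Nuf2 (-1.21 ± 0.16) fell too. Mean log2 CPM of the list was 3.04, 2.75, 3.17 and 3.45 with CMC and 1.85, 2.22, 2.35 and 2.19 with pemafibrate. Genes of DNA replication did not move in that way, with 7 of 43 lower and 1 higher (median -0.13). The share called, 18.6%, is below the 25.4% of all genes. Thymidine kinase Tk1 fell (-0.80 ± 0.11) and the replication factor Gins4 rose (0.68 ± 0.10). Without CMC mouse 4, 4 of these genes fell. The difference between the mitosis and replication lists was not tested. Of 32 p53 targets 6 rose and 1 fell, a share of 21.9% that does not exceed the 25.4% of all genes. Cdkn1a, the inhibitor of cyclin-dependent kinases, read 29.9, 40.4, 41.6 and 72.6 CPM and 96.03, 74.9, 115 and 91.7 CPM (1.03 ± 0.21), and the death receptor Fas (0.72 ± 0.11) and Perp (0.52 ± 0.08) rose, while Bbc3 fell (-0.39 ± 0.11), a call lost without CMC mouse 2 or pemafibrate mouse 2.

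Many secreted and metabolic products of the hepatocyte fell. Of 20 hepatocyte markers 15 fell and none rose, with a median of -0.54. Serpina1e, an α1-antitrypsin, read 8934, 10040, 6947 and 4760 CPM and 2825, 2195, 2229 and 2124 CPM (-1.71 ± 0.23), whereas Alb changed by -0.16 ± 0.19 (edgeR adjusted p = 0.60). Serpina1e belongs to a family of near-identical copies. Amino acid breakdown and the urea cycle had 18 of 42 genes lower and 2 higher (47.6% called, beside the 25.4% of all genes). Cps1, which commits ammonia to urea, read 2699, 3108, 2216 and 2252 CPM and 1003, 941, 1100 and 1333 CPM (-1.23 ± 0.16). The later urea cycle enzymes Ass1 (-0.98 ± 0.14) and Asl (-1.02 ± 0.13) fell. So did the proline dehydrogenase Prodh (-1.77 ± 0.20) and the glycine methyltransferase Gnmt (-1.22 ± 0.13), while Tdo2 (0.92 ± 0.17) and Bckdhb (0.26 ± 0.08) rose. Bckdhb lost its call without CMC mouse 1, 3 or 4 or pemafibrate mouse 2 or 4. Lists of zonation fell on both sides of the lobule, with 8 of 20 pericentral and 8 of 16 periportal markers lower and none higher. These are 40% and 50% called. Lgr5, a pericentral Wnt target, read 8.21, 3.79, 4.08 and 2.71 CPM and 1.66, 1.45, 0.326 and 1.40 CPM (-1.97 ± 0.39).

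Of 23 genes of bile acid synthesis and transport, 10 were lower and 4 higher (60.9% called, beside the 25.4% of all genes). Cyp7a1, which sets the rate of making bile acids from cholesterol, read 245, 274, 70.8 and 127 CPM with CMC and 67.7, 74.7, 23.1 and 60.9 CPM with pemafibrate (-1.67 ± 0.38, edgeR adjusted p = 0.0032). The groups overlapped, because CMC mouse 3 lay below pemafibrate mouse 2. Cyp2c70, which makes the muricholic acids of the mouse, changed by -1.32 ± 0.19, the uptake carrier Slco1a4 by -2.20 ± 0.25 and the receptor Fgfr4, through which FGF15 restrains synthesis, by -1.05 ± 0.16. The exporters Abcb4 (0.64 ± 0.10), Abcc3 (0.85 ± 0.22) and Abcc4 (1.47 ± 0.27) rose, as did Amacr (0.30 ± 0.10). For Abcc4 pemafibrate mouse 1 stayed at the vehicle level, with 3.51, 12.3, 12.8 and 10.7 CPM against 3.94, 3.21, 3.47 and 3.64 CPM. The call of Amacr was lost without CMC mouse 2, 3 or 4 or pemafibrate mouse 1 or 4.

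Of 34 cytochromes P450 of families 1 to 3, 12 fell and 4 rose (47.1% called, beside the 25.4% of all genes). Those that rose numbered 2 without CMC mouse 2 or 3 or pemafibrate mouse 1, 2 or 4. Cyp1a2 read 365, 315, 282 and 265 CPM and 110, 165, 75.7 and 145 CPM (-1.31 ± 0.19), and Cyp2d40 changed by -1.32 ± 0.21. Cyp2a22 rose from 1.38, 1.26, 2.06 and 4.36 CPM to 16.6, 18.8, 17.2 and 19.9 CPM (2.98 ± 0.35). Within the growth hormone and STAT5 list 12 of 26 genes fell and 5 rose (65.4% called). Hsd3b5, a male-biased steroid enzyme, read 132, 87.2, 72.4 and 17.9 CPM with CMC and 22.97, 3.97, 1.57 and 3.48 CPM with pemafibrate (-3.29 ± 0.63). The groups overlapped at CMC mouse 4 and pemafibrate mouse 1, and without the latter the change was -4.70. Stat5b, the transducer of the hormone, changed by -0.37 ± 0.08. The clock list had 10 of 18 genes lower and 1 higher (61.1% called). Among the former were Per2 (-0.72 ± 0.12), Dbp (-0.76 ± 0.16) and Cry2 (-0.53 ± 0.10). All livers were collected at the same interval after dosing, and the labels do not give the hour.

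Of 23 secreted hepatokines 4 rose and 7 fell, a share called of 47.8% beside the 25.4% of all genes. Fgf21, a hormone of the fasted liver, was among those that rose and read 2.75, 1.64, 6.14 and 7.14 CPM and 9.30, 14.95, 32.9 and 10.9 CPM (1.93 ± 0.41, edgeR adjusted p = 0.0018), with pemafibrate mouse 3 the highest. Angptl4, an inhibitor of lipoprotein lipase, rose too and read 75.99, 59.3, 115 and 125 CPM and 368, 263, 255 and 273 CPM (1.62 ± 0.19). Vnn1, the pantetheinase that recycles the vitamin part of coenzyme A, changed by 2.80 ± 0.21. Above a mean level of 1 log2 CPM the largest rise was that of Cpne5, a calcium-dependent membrane-binding copine. It lay at 0.321, 0.0765, 0.289 and 0.0343 CPM with CMC, a handful of counts at most, and at 32.2, 25.6, 22.2 and 19.6 CPM with pemafibrate (7.13 ± 0.33, 2.8e-10). The keratin Krt23 rose from 1.19, 0.918, 1.99 and 1.92 CPM to 40.4, 15.4, 17.5 and 13.8 CPM (3.83 ± 0.33), pemafibrate mouse 1 being the highest. The protease Adamts15 (4.17 ± 0.23), the laminin chain Lamb3 (3.52 ± 0.22) and the recombination gene Rad51b (3.62 ± 0.24) were further large rises outside lipid metabolism. Among the largest falls outside the groups above were the organic anion carrier Slc22a7 (-2.62 ± 0.48, and -3.45 without pemafibrate mouse 1), the channel Hcn3 (-2.33 ± 0.41), the scavenger receptor Scara5 (-2.13 ± 0.47) and the pro-apoptotic Bmf (-2.05 ± 0.26).

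Markers of the other cells of the liver were read from lists of their own. None of the 22 endothelial and none of the 16 Kupffer cell markers was called by edgeR, with 0 and 4 at an unadjusted p under 0.05. The Kupffer count depended on single mice, with 4 markers called lower without pemafibrate mouse 3 (median -0.48 against -0.22), 3 without CMC mouse 4 and 1 without CMC mouse 2 or 3. It was 2 with DESeq2, 3 with no filter on low counts and 1 with upper-quartile scaling. Of 19 stellate cell and fibroblast markers Acta2 rose (0.78 ± 0.26), and of 20 markers of monocytes and macrophages Chil3 (-0.89 ± 0.27) and F13a1 (-0.70 ± 0.23) fell. Both shares called, 5.26% and 10%, are below the 25.4% of all genes. Calls were lost for Acta2 without CMC mouse 1, 2 or 3 or pemafibrate mouse 2, 3 or 4, for Chil3 without CMC mouse 1 or 2 or pemafibrate mouse 2 and for F13a1 without CMC mouse 1 or 3 or pemafibrate mouse 2 or 4. Mean log2 CPM of the Kupffer list was 4.77, 4.59, 4.31 and 4.17 with CMC and 3.94, 3.89, 4.67 and 4.02 with pemafibrate. For the endothelial list it was 3.72, 3.25, 3.32 and 3.30 and 3.32, 3.41, 3.86 and 3.28. Pemafibrate mouse 3 was the highest treated liver for both lists, and pemafibrate mouse 1, its opposite on the second component, was the highest for the nuclear respiratory genes. Of 11 cholangiocyte markers (27.3% called, near the 25.4% of all genes) Krt23 rose and 2 fell, among them Elf3 (-1.72 ± 0.35), while the defining marker Krt19 stayed at 0.229, 0.918, 1.01 and 0.446 CPM and 1.04, 1.33, 0.623 and 1.24 CPM.

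The response was set beside that of the Ad-CTRL livers, where 2389 genes rose (16.2%) and 2134 fell (14.4%) out of the same 14770. These livers have vehicle controls of their own, so the comparisons share no library, but they share 1 fit. Of the 3750 genes called in Ad-FAT10 livers, 2641 were called in Ad-CTRL livers too, 7 of them in the opposite direction. The difference between both responses was tested gene by gene as an interaction, which called 23 genes (0.156%), with 1591 at an unadjusted p under 0.05. In 23 of the 23 the change was smaller in size in Ad-FAT10 livers. DESeq2 called 115 genes. Leaving out 1 Ad-FAT10 mouse gave 12 to 34, the lowest counts being 12 without CMC mouse 3, 13 without pemafibrate mouse 4 and 14 without pemafibrate mouse 2.

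The lists gave much the same counts in both viruses for lipid metabolism and the proteasome. In Ad-CTRL livers 60 of 61 PPARα targets rose with a median of 1.95, beside 60 and 2.02 in Ad-FAT10 livers, and Pdk4 was the member whose interaction was called. All 18 subunits of the 19S regulator and 13 of 14 of the 20S core rose there as well. In 8 lists the counts of the viruses lay at least 9 members apart, given here with Ad-CTRL first. Those with members that rose were the nuclear respiratory chain (20 and 37 of 51), mitochondrial import and chaperones (14 and 25 of 31), the cytosolic ribosome (2 and 13 of 40) and the mitochondrial ribosome (8 and 17 of 48). Those with members that fell were mitosis (23 and 38 of 42), neutrophil markers (1 and 13 of 14), NF-κB and cytokine genes (3 and 12 of 26) and type I interferon genes (11 and 2 of 39). No member of these 8 lists was called in the interaction test by edgeR, so a difference between the viruses was not shown for any of them. Apart from the type I interferon genes, where 1 to 3 were called lower with 1 mouse left out, leaving out 1 mouse moved 5 of these Ad-FAT10 counts by more than 1.5 times. They were 24 nuclear respiratory genes without pemafibrate mouse 1, 10 mitochondrial ribosome genes without CMC mouse 1 or pemafibrate mouse 1, and 5, 8 and 7 cytosolic ribosome genes without CMC mouse 1, pemafibrate mouse 1 and pemafibrate mouse 2. Neutrophil markers called lower numbered 8 without CMC mouse 2, and NF-κB genes 6 without CMC mouse 3 and 5 without pemafibrate mouse 4.

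Il1rn, the natural antagonist of interleukin 1, showed the difference plainly. In Ad-CTRL livers it read 15.3, 8.36, 8.37 and 8.64 CPM with CMC and 51.7, 62.4, 59.4 and 53.2 CPM with pemafibrate (2.49 ± 0.22). In Ad-FAT10 livers it was already at 36.4, 24.9, 51.7 and 43.9 CPM with CMC and reached 60.6, 44.8, 68.1 and 47.2 CPM (0.49 ± 0.20, adjusted p = 0.088, and 0.032 without CMC mouse 3 and 0.012 with no filter). The interaction was -1.996 ± 0.30 (edgeR adjusted p = 0.011). The treated livers of both viruses thus overlapped, and the vehicle livers did not. Pde7b, a cAMP phosphodiesterase, differed in the other way. It read 6.04, 4.94, 5.55 and 4.73 CPM and 16.4, 15.1, 24.2 and 19.2 CPM in Ad-CTRL livers, but 6.51, 5.20, 3.76 and 3.26 CPM and 4.86, 4.08, 4.87 and 3.84 CPM in Ad-FAT10 livers, so here the treated livers differed (interaction -1.89 ± 0.27, 0.0086). Atp10d, a phospholipid flippase, rose in both, by 2.90 ± 0.15 and 1.66 ± 0.14 (0.015), and St5 by 1.90 ± 0.12 and 0.94 ± 0.11 (0.015). Pawr and Rc3h1 rose in Ad-CTRL livers (1.22 ± 0.11 and 0.81 ± 0.09) and were not called in Ad-FAT10 livers (0.22 ± 0.11 and 0.07 ± 0.08; Pawr was called without CMC mouse 3), with interactions of -1.01 ± 0.15 and -0.74 ± 0.12.

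The 7 genes called in opposite directions were Ipmk, Chil1, Nek2, Rictor, Ccdc77, Ccdc85b and Dusp16. Ipmk, an inositol phosphate kinase, read 73.3, 90.8, 69.2 and 65.2 CPM and 124, 118, 122 and 125 CPM in Ad-CTRL livers and 67.5, 73.6, 59.5 and 61.05 CPM and 50.4, 54.1, 54.3 and 56.8 CPM in Ad-FAT10 livers. It rose by 0.72 ± 0.10 in the first and changed by -0.28 ± 0.10 in the second (interaction -0.99 ± 0.14, edgeR adjusted p = 0.0077). The interaction held without each of the 8 Ad-FAT10 mice in turn for Ipmk, Chil1, Il1rn, Pde7b, Pawr, Rc3h1, St5 and Atp10d, but the fall of Ipmk within Ad-FAT10 livers was lost without CMC mouse 1 or 2 or pemafibrate mouse 1, 2, 3 or 4. That of Chil1 (-0.63 ± 0.19) was lost without CMC mouse 2 or 4 or pemafibrate mouse 2 or 3, and that of Nek2 (-0.49 ± 0.15) without CMC mouse 4 or pemafibrate mouse 1 or 3. With no filter on low counts the falls of Ipmk, Rictor and Dusp16 were not called (adjusted p = 0.13, 0.080 and 0.056). Ccdc85b was the only one of the 7 that rose in Ad-FAT10 livers (0.55 ± 0.15). The interaction was called for 3 of the 7, Ipmk, Chil1 (0.015) and Nek2 (0.024), the last in 7 of the 8 fits. Pdk4, among the strongest targets, rose by 7.77 ± 0.32 in Ad-CTRL livers, and its interaction (-1.86 ± 0.36, 0.049) held in 2 of the 8 fits.

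**Figure D5:**
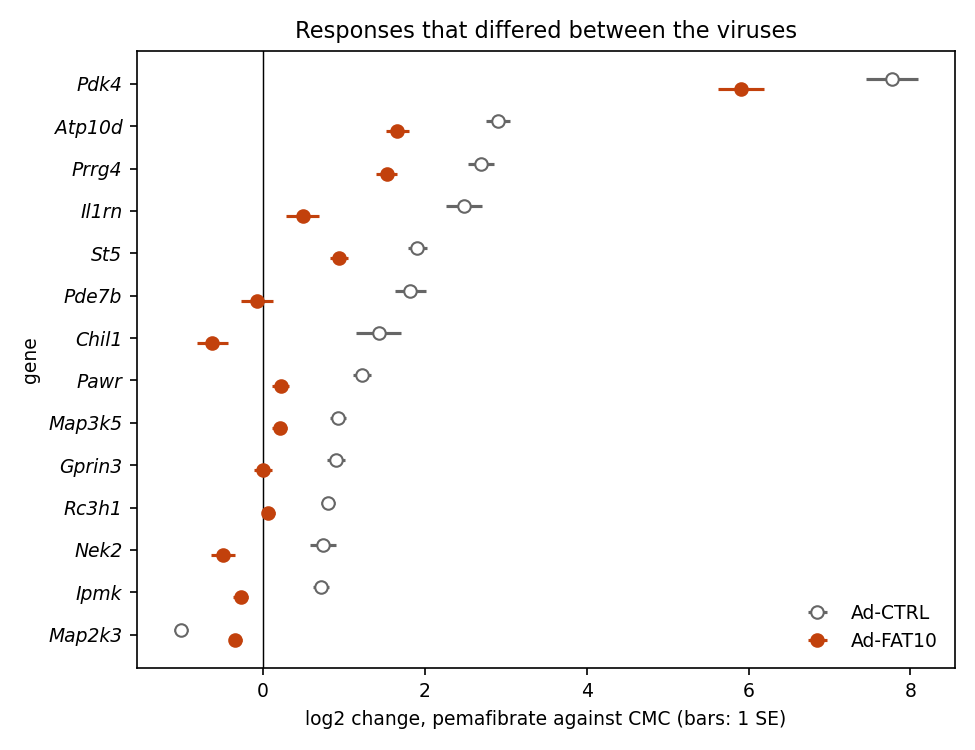
Log2 change with pemafibrate in Ad-CTRL livers (open circles) and in Ad-FAT10 livers (filled circles), with bars of 1 SE from the edgeR fit, for the 12 genes with the smallest interaction p among those with a standard symbol, and for Chil1 and Pdk4. For every gene shown the Ad-FAT10 change is nearer to 0 than the Ad-CTRL change.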

How the data were processed

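The authors deposited raw counts per Ensembl gene, 1 file per liver, with no normalization. Per the labels' protocols, poly(A) RNA was made into dUTP-marked libraries. STAR 2.7.6, DESeq2 1.36.0 and 2.11.40.6, and build GRCm39 are listed in the submitters' processing notes. How reads were counted, on which strand and with which annotation release, is not given in the sources used here. Near-identical copies and overlapping genes are therefore uncertain. Groups and replicate numbers come from the titles (n1 to n4), which were taken to mean separate mice. The p-values measure the spread between these samples. No pair of replicates was identical, and the lowest chi-square per gene between replicates was 14.52.

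Symbols came from GENCODE M21 by identifier (52083 of 55416 matched, unmatched ones holding 0.0988% of counts). In R 4.3.3, edgeR 4.0.16 kept 14770 genes by filterByExpr, scaled by TMM and fitted 1 mean per group to all 16 libraries by quasi-likelihood (12 residual degrees of freedom, common coefficient of variation 0.151), so that the groups share 1 estimate of spread. Tests were pemafibrate against CMC in each virus, and their difference, with Benjamini-Hochberg adjustment over all genes. The fit was tested on simulated data. Log2 CPM used a prior count of 2. Alternatives were RLE and upper-quartile scaling, no filter or at least 1 CPM in 4 libraries, DESeq2 1.42.0, the 8 Ad-FAT10 libraries alone, a replicate block, and leaving out each Ad-FAT10 mouse.

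The 63 lists (1469 genes), the comparison and the rule for names were chosen with earlier results of these data known. Lists share members, such as Ehhadh and Acot2, so their counts are not independent. The rule took the 15 largest rises and 15 largest falls (called, mean of at least 1 log2 CPM, groups not overlapping, standard symbol), the 4 members of each list with the smallest p, a set of 20 genes of FAT10 and PPARα biology, the 12 genes with the smallest interaction p, and genes called in opposite directions. Remaining called members of a list where 5 or fewer moved one way, and Alb and Krt19, were named after their values were seen. Promoter sequences came from a RefSeq table of GRCm38.p6, used for sequence only. Some of the genes that this rule takes are not reported here.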

Additional observations from a re-analysis of the deposited data

Results flagged for a closer look

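In 400 groups of 4 Ad-FAT10 livers, taken over the genes named and 5 lists, 29 held a liver whose gap to the next passed Dixon's 95% critical value for its group, where chance gives about 1 in 20. Pemafibrate mouse 1 held 11 of these. It was the highest treated liver for Plin5 (162 CPM), Suclg1 (184 CPM), Fas (51.3 CPM), Serpina1e (2825 CPM), Hsd3b5 (22.97 CPM), Angptl4 (368 CPM), Krt23 (40.4 CPM), Slc22a7 (11.6 CPM) and Moxd1 (1.62 CPM), and the lowest for Ehhadh (8831 CPM) and Acta2 (1.89 CPM). CMC mouse 2 stood above the other vehicle livers for Saa1 (5470 CPM), Saa2 (6516 CPM), Orm2 (444 CPM), Ass1 (1999 CPM), Ahsg (5616 CPM) and Enho (34.3 CPM). CMC mouse 1 stood apart for Cyp4a14 (189 CPM), Pex19 (128 CPM), Cct3 (104 CPM), Rc3h1 (38.0 CPM) and the mean of endothelial markers (3.72 log2 CPM). CMC mouse 4 did so for Lpin1 (215 CPM) and Rictor (22.8 CPM). Pemafibrate mouse 4 was apart for Acot4 (299.7 CPM), Acot3 (234 CPM) and Cfd (15.2 CPM), pemafibrate mouse 2 for Ppp1r3c (15.8 CPM) and pemafibrate mouse 3 for the mean of Kupffer cell markers (4.67 log2 CPM).

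The interaction test, which called 23 of all 14770 genes (0.156%), called 12 of the genes named. Most of these were named for their small interaction p or their opposite directions, so the count of 12 follows from that choice. The Ad-FAT10 change less the Ad-CTRL change, on the log2 scale, was -1.86 for Pdk4, -2.07 for Rad51b, -1.996 for Il1rn, -1.89 for Pde7b, -1.25 for Atp10d and -0.97 for St5. It was -1.01 for Pawr, -0.74 for Rc3h1, -0.99 for Ipmk, -2.06 for Chil1, -1.24 for Nek2 and -2.90 for Gm15441. Each of these was a smaller change in Ad-FAT10 livers. With 1 Ad-FAT10 mouse left out, the interaction was called in 2 of 8 fits for Pdk4, 3 for Rad51b and 7 for Nek2. For the others it was called in all 8.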

How the results depend on the processing

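Of 86 recomputed counts over all genes, 82 stayed within 1.5 times the reported value, those of genes higher or lower in Ad-FAT10 livers among them. Those counts were 1686 and 2115 with upper-quartile scaling, 1896 and 1705 with no filter, 2041 and 1923 with DESeq2, 1878 and 1426 with the 8 Ad-FAT10 libraries alone, and 1596 to 1919 and 1336 to 1941 with 1 mouse left out. The 4 others were counts of interaction genes, where 23 became 115 with DESeq2 and ranged from 12 to 34 with 1 mouse left out, 12 without CMC mouse 3, 13 without pemafibrate mouse 4 and 14 without pemafibrate mouse 2. The cause was not tested. Of 3055 values of named genes, 118 lost and 5 gained a call, and 2 changed sign, the change of Pde7b without CMC mouse 1 (0.12) or CMC mouse 2 (0.00047), within a range of -0.22 to 0.12 over the mice left out and not called in any of those fits. The lost calls were mostly of changes under 1 on the log2 scale. With the 8 Ad-FAT10 libraries alone the calls of Nrip1, Rxra, Ncoa2, Nudt7, Aqp9, Edem1, Gbp8, Bbc3, Amacr and Ipmk were lost, with no filter those of Rxrb, Psme3, Bckdhb, Amacr, Ipmk, Rictor and Dusp16, with DESeq2 those of Ubd and Nudt7 and with upper-quartile scaling that of Amacr. Counts of list members moved in 172 of 1890 cases, 134 of them with 1 mouse left out.

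No pairing of the mice by replicate number was seen, in a check of few mice that cannot exclude one. Deviations from the group means correlated at -0.10 to 0.006 between same-numbered mice of the groups and at -0.14 to 0.19 between others, in 4 numbers per group, where a shared number was taken as a pairing above 0.1 in every case, and not every mouse correlated best with the mouse of its own number. With the number as a replicate block 1809 genes were higher and 1794 lower, and the interaction called 16. In that fit the adjusted p within Ad-FAT10 livers was 0.059 for Ubd, 0.0503 for Nrip1 and 0.0504 for Ipmk, and the interactions of Rad51b and Nek2 were not called. Depth, at 3 counts or 0.104 to 0.151 CPM, limits genes such as Aqp3 and Cpne5 whose vehicle levels were a few counts, so that their fold is poorly bounded.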

Other observations

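Further genes and lists in Ad-FAT10 livers were not described above. Of 22 retinoid genes 5 rose and 4 fell, a share called of 40.9% beside the 25.4% of all genes. The retinol saturase Retsat (2.70 ± 0.16) and the retinol dehydrogenase Rdh16 (1.69 ± 0.18) rose, and Rdh5 (-1.23 ± 0.17) fell. Among 34 mitochondrial carriers of the Slc25 family 13 rose and 6 fell (55.9% called). The carnitine-acylcarnitine carrier Slc25a20 read 132, 114, 132 and 125 CPM with CMC and 419, 362, 307 and 375 CPM with pemafibrate (1.54 ± 0.11). The ornithine carrier Slc25a15, a step of the urea cycle, was lower (-0.74 ± 0.12). Among the hepatokines the activin chain Inhbe (1.14 ± 0.17) was higher, and fetuin-A, Ahsg (-1.01 ± 0.16), and Enho (-1.65 ± 0.26), which encodes adropin, were lower. Among 25 genes of cholesterol synthesis 2 rose and 5 fell, a share of 28% near the 25.4% called over all genes. Without CMC mouse 1 or 2 or pemafibrate mouse 3 or 4 the cholesterol genes that fell numbered 3, 2, 2 and 2, and without CMC mouse 2 or pemafibrate mouse 3 or 4 the Slc25 genes that fell numbered 2, 3 and 3. Rdh5, Slc25a15, Ahsg and Enho were chosen after their values were seen. Each gene named in this paragraph kept its call without any single Ad-FAT10 mouse.

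Some genes below the mean level set for naming changed widely and were chosen after their values were seen. Clec2h, a C-type lectin, read 4.45, 4.89, 4.19 and 1.96 CPM with CMC and 0.0386, 0.153, 0.237 and 0.130 CPM with pemafibrate, the latter a few counts per library (edgeR adjusted p = 8.8e-08). Xirp1, an actin-binding protein best known from muscle, read 3.67, 2.87, 1.63 and 1.61 CPM and 0.116, 0.0763, 0.119 and 0.130 CPM (9.1e-07). The chemokine receptor Cxcr1, by contrast, was at 0.0917, 0.0765, 0.0361 and 0.0343 CPM and 3.32, 2.25, 1.63 and 2.21 CPM (1.5e-07), higher in every treated liver, while most neutrophil markers fell. Moxd1, a monooxygenase-like protein, spread over 87.1, 120, 13.3 and 1.20 CPM in the CMC livers and 1.62, 0.114, 0.0297 and 0.195 CPM in the pemafibrate livers (0.0018), and the groups overlapped.

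The RNA gene Gm15441 rose from 4.72, 1.26, 1.91 and 1.27 CPM to 171, 150, 142 and 145 CPM in Ad-FAT10 livers (6.10 ± 0.30) and by 8.997 ± 0.36 in Ad-CTRL livers, and its interaction was -2.90 ± 0.47 (edgeR adjusted p = 0.015). It lies antisense to Txnip, an inhibitor of thioredoxin, which rose by 0.92 ± 0.21 (adjusted p = 0.0028). Because the counting's strand setting is not known here, reads of this pair may not be fully separated.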
